A study of Homo sapiens with 6 samples.

Results

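The genes described here build and regulate HLA class I antigen presentation: the heavy chain genes HLA-B, HLA-C, HLA-E, HLA-F and HLA-G, the light chain gene B2M, the peptide transporter genes TAP1 and TAP2, and the transactivator gene NLRC5. They were chosen by gene symbol, with earlier results of these data known, and all 9 were present among the 26485 genes of the authors' deposited table. Gene expression was measured by 3′ sequencing of polyadenylated RNA in cells of PC9, a line from a human lung adenocarcinoma that grows on a mutant, active EGFR. The groups were 3 libraries of dacomitinib resistant PC9 cells kept in 100 nM dacomitinib and 3 libraries of untreated parental PC9 cells. Dacomitinib binds kinases of the EGFR family covalently and blocks them, and the resistant cells were selected in doses that began at 1 pM and ended at 100 nM, over 6 months. Both groups come from 1 cell line, and whether the resistant cells were a clone is not given in the sources used here. No group of resistant cells without drug, or of parental cells with drug, was analysed here, so resistance and drug exposure cannot be told apart.

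Class I molecules display peptides from inside the cell to CD8 T cells and to natural killer cell receptors. Cytosolic peptides are carried into the endoplasmic reticulum by the TAP1 and TAP2 heterodimer and loaded onto a heavy chain paired with beta-2 microglobulin, the product of B2M. HLA-B and HLA-C are classical, highly polymorphic heavy chains, while HLA-E, HLA-F and HLA-G are non-classical ones with restricted roles, and HLA-G is best known from the placenta. NLRC5 is drawn to class I promoters by factors that sit on a conserved module of X and Y boxes, and NF-kB and interferon-regulatory factors act on neighbouring elements.

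RefSeq promoter windows (GRCh38.p14) were at hand for 7 of the 9 members, not for HLA-E or NLRC5. The 200 bases before the listed start are shown for 6 genes. Members that rose can thus be set beside TAP2, which did not pass the test, and HLA-B beside the similar HLA-C. Capitals mark matches, on either strand, to 5 motifs that were searched: an NF-kB motif, the interferon-stimulated response element, TGACG (core of the X2 box), ATTGG (Y box) and TTCNNNGAA (STAT). The windows lie at chr6:31357180-31357379, minus strand for HLA-B, chr6:31272093-31272292, minus strand for HLA-C, chr6:29723234-29723433, plus strand for HLA-F, chr15:44711317-44711516, plus strand for B2M, chr6:32853705-32853904, minus strand for TAP1, and chr6:32838740-32838939, minus strand for TAP2.
HLA-B: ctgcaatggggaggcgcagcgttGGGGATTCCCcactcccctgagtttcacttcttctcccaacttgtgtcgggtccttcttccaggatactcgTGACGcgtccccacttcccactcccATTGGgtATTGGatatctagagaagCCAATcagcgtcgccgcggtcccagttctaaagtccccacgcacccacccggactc
HLA-C: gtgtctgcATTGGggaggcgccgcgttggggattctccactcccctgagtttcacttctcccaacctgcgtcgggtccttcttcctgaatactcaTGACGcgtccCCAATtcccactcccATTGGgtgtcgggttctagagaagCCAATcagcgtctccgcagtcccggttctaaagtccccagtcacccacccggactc
HLA-F: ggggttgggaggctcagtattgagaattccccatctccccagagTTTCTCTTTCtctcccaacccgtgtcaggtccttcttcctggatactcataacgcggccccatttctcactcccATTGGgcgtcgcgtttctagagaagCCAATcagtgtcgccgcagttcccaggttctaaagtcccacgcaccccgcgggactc
B2M: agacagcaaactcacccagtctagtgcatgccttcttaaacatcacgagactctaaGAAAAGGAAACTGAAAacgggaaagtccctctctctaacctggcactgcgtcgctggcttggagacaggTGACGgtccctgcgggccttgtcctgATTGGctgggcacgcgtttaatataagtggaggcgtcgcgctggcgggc
TAP1: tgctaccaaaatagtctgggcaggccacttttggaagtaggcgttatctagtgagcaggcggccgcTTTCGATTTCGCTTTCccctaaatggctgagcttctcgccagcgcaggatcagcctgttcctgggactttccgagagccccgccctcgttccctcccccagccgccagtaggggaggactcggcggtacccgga
TAP2: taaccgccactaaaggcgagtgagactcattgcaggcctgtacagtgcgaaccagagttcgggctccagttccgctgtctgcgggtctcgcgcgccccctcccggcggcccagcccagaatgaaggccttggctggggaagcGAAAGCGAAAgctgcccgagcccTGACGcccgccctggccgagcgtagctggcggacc

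Over windows from 250 bases before to 50 after the start, HLA-B was the 1 member of 7 with the NF-kB letters, at positions -177 to -168, where -1 is the base just before the start. Those letters occurred in 0.0806% of 27305 gene promoters of the same length. In the HLA-C promoter the aligned bases differed by C9T, counted from the first base of the HLA-B match, and HLA-F differed by G2A and G4A. The interferon-stimulated element was matched in HLA-F, B2M, TAP1 and TAP2, against 3.65% of all promoters, with 2 overlapping matches each in TAP1 and in B2M. The X2 letters were found in HLA-B, HLA-C, B2M and TAP2, and in 25.0% of all promoters. The Y box letters were found in 6 of the 7 members, all but TAP2, and in 35.7% of all promoters; that of TAP1 lies upstream of the bases shown. A STAT match was found in 1 member, at listed start 2 of TAP1, and in 7.88% of all promoters. Members were searched at every listed start, but the share of all promoters counts only the first listed start of each gene. The Y box letters of HLA-G were found only at its listed start 3. For the Y box and STAT letters, member counts and shares are therefore not on a like measure. Aligned over their 300-base windows, the promoters of HLA-B and HLA-C were 90.9% identical, and those of HLA-B and HLA-F 82.4%. These are reference sequences: the alleles that PC9 carries were not examined, and a match is a description of letters.

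Resistant cells had more transcript of 7 of the 9 members. Per the authors' deposited table HLA-B was far higher, HLA-F and NLRC5 several-fold higher, TAP1 and B2M about 3-fold, and HLA-C and HLA-E about 2-fold higher, while TAP2 did not pass and HLA-G was listed at 0. A gene counts as called where the adjusted p of the authors' deposited table, from a two-sided Wald test made with DESeq2, is under 0.05. Of 8 members with an adjusted p, 7 were called higher and 0 lower. At an unadjusted p under 0.05 the number lower was also 0. By comparison, 28.2% of all 13494 genes tested per the authors' deposited table were called, 13.3% higher and 14.8% lower. Because the members were chosen with earlier results of these data known, this comparison is a description and not a test. Under other call rules, 7 members were higher with p adjusted over every gene with a p (10.9% of genes higher), 7 after centring the folds on the median (14.3%) and 7 at an adjusted p under 0.01 (9.77%). With adjustment over genes with a mean count of 50 or more 4 were higher (19.4%), and in a test against a fold of 1.5 there were 5 (3.14%). Among the 8 tested members the median log2 fold change was 1.58, and over all genes tested 0.02, per the authors' deposited table. Values per library were not analysed here, so the spread is given as the standard error (SE) of the authors' fit, and the mean of each group was worked out from the mean count and fold that the authors' deposited table gives. The headers state no direction of the fold, and it is taken as resistant over parental after the design text; were it the other way, every sign and group mean given here would swap. Labels number the libraries but name no separate cultures, so the tests measure the spread between these libraries, which may be technical. In bulk RNA, a change in the share of cells that express a gene and a change in RNA per cell cannot be told apart.

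**Figure D1:**
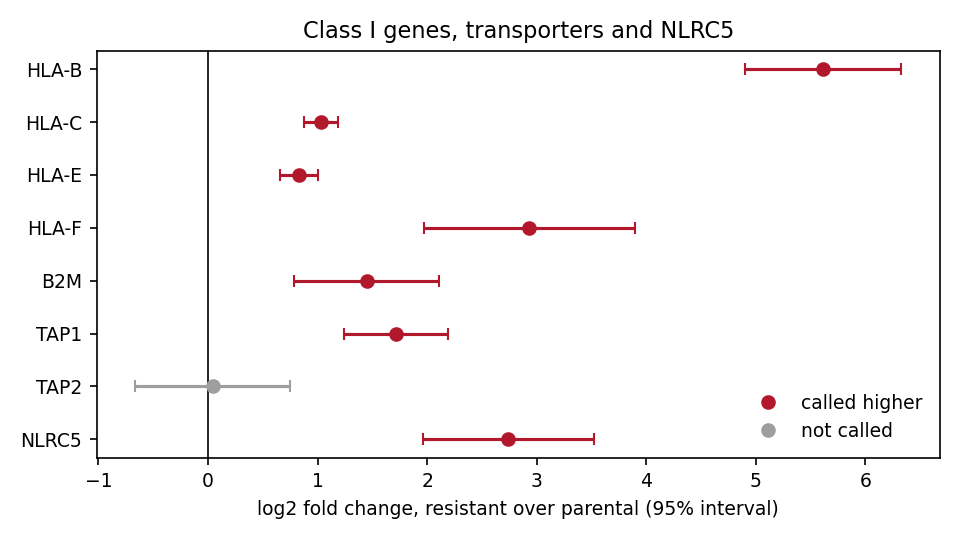
Log2 fold change (resistant over parental) of the 8 members with reads, on the x axis, with 95% normal intervals from the authors' standard errors as bars; red points were called higher and the grey point was not called. HLA-B stands apart at 5.62, and the interval of TAP2 spans 0, from -0.67 to 0.75.

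HLA-B, a classical heavy chain gene at chromosome 6, from 31269491 to 31357188 (GRCh38, GENCODE 29), had a fitted mean normalized count of 331 in resistant cells, against 6.75 in parental cells. Its log2 fold change per the authors' deposited table was 5.62 ± 0.36 (SE), with adjusted p = 8.4e-52. This is a 49.1-fold difference with a 95% interval from 30.0-fold to 80.4-fold. The SE of HLA-B was wider than the median of 0.15 for the 200 genes nearest to it in mean count.

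HLA-C, the other classical heavy chain gene with values here, lies at chromosome 6, from 31268749 to 31272130. It had a fitted mean count of 1556 in resistant cells, against 761 in parental cells, which makes it the best counted member. The fold change of HLA-C per the authors' deposited table was 1.03 ± 0.08, a 2.04-fold difference with an interval from 1.83-fold to 2.28-fold, and adjusted p was 2.53e-36. Both classical genes were called, but the interval of HLA-B on the log2 scale (4.91 to 6.33) lay wholly above that of HLA-C (0.88 to 1.19). The interval of HLA-B overlapped with none of the other 7, and over all pairs of members 18 had intervals apart and 10 had intervals that overlapped. These intervals treat each gene alone, and the difference between 2 genes was not tested.

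HLA-E presents leader peptides of other class I chains to the natural killer receptor CD94/NKG2A and lies at chromosome 6, from 30489467 to 30494205. Its fitted mean count was 753 in resistant cells, against 424 in parental cells. Per the authors' deposited table this was 0.83 ± 0.09 on the log2 scale (adjusted p = 8.67e-19), the smallest of the 7 rises. HLA-F, whose product is found on activated lymphocytes and can bind natural killer receptors, lies at chromosome 6, from 29722775 to 29738528. HLA-F had a fitted mean count of 41.5 in resistant cells, against 5.44 in parental cells. Its fold change per the authors' deposited table was 2.93 ± 0.49 (adjusted p = 3.44e-08), and the interval ran from 1.97 to 3.90. The count behind it was low, 141 normalized reads summed over the 6 libraries.

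HLA-G, at chromosome 6, from 29826967 to 29831125, was listed at a mean count of 0 per the authors' deposited table and has no test. A count of 0 over 6 libraries allows up to 3 reads, a mean count of 0.5, for counting error alone. Of 3 starts listed for HLA-G, the most downstream had a promoter window 86.0% identical to that of HLA-C. A count near 0 in these 3′ libraries is not read as absence, since the ribosomal protein genes RPL10 and RPL13, which cells use at high levels, had mean counts of 0.571 and 1.92 per the authors' deposited table.

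B2M, which encodes the light chain shared by all of these heavy chains, lies at chromosome 15, from 44711487 to 44718877. Its fitted mean count was 60.1 in resistant cells, against 22.0 in parental cells. B2M had a fold change of 1.45 ± 0.34 per the authors' deposited table (adjusted p = 0.000129), a 2.73-fold difference with an interval from 1.73-fold to 4.31-fold. B2M is usually one of the more abundant transcripts of a cell, yet at a mean count of 41.1 it stood at percentile 45.2 of the genes tested per the authors' deposited table, so its level is uncertain here, and its fold rests on 246 normalized reads.

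**Figure D2:**
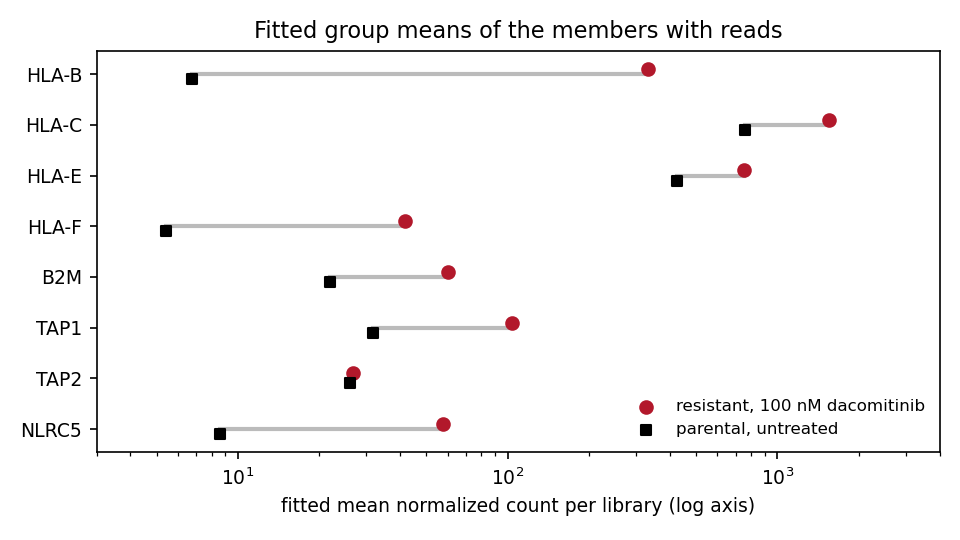
Fitted mean normalized count per library (x axis, log scale) of the 8 members with reads, derived from the authors' mean count and fold; red circles are resistant cells in 100 nM dacomitinib, black squares untreated parental cells, and grey lines join the groups of 1 gene. HLA-B, HLA-F and NLRC5 lay under 10 in parental cells, whereas HLA-C and HLA-E were at 424 or more in both groups.

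The partners of the peptide transporter differed in their calls. TAP1, at chromosome 6, from 32845209 to 32853978, had a fitted mean count of 104 in resistant cells, against 31.6 in parental cells. Its fold change per the authors' deposited table was 1.72 ± 0.24 (adjusted p = 2.37e-11), a 3.29-fold difference. TAP2, whose start lies 15198 bases from that of TAP1, at chromosome 6, from 32821833 to 32838780, had a fitted mean count of 26.8 in resistant cells, against 26.0 in parental cells. Its fold change of 0.04 ± 0.36 per the authors' deposited table did not pass (adjusted p = 0.955), and the 95% interval from -0.67 to 0.75 lay below that of TAP1, from 1.24 to 2.19. The interval leaves room for a TAP2 difference of up to 1.68-fold. Both promoters held the interferon-stimulated letters shown above.

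NLRC5, the transactivator of class I genes, lies at chromosome 16, from 56989485 to 57083531. It had a fitted mean count of 57.5 in resistant cells, against 8.60 in parental cells. The fold change of NLRC5 per the authors' deposited table was 2.74 ± 0.40 (adjusted p = 1.06e-10), a 6.69-fold difference with an interval from 3.89-fold to 11.5-fold. Its interval overlapped with those of HLA-F, B2M and TAP1.

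**Figure D3:**
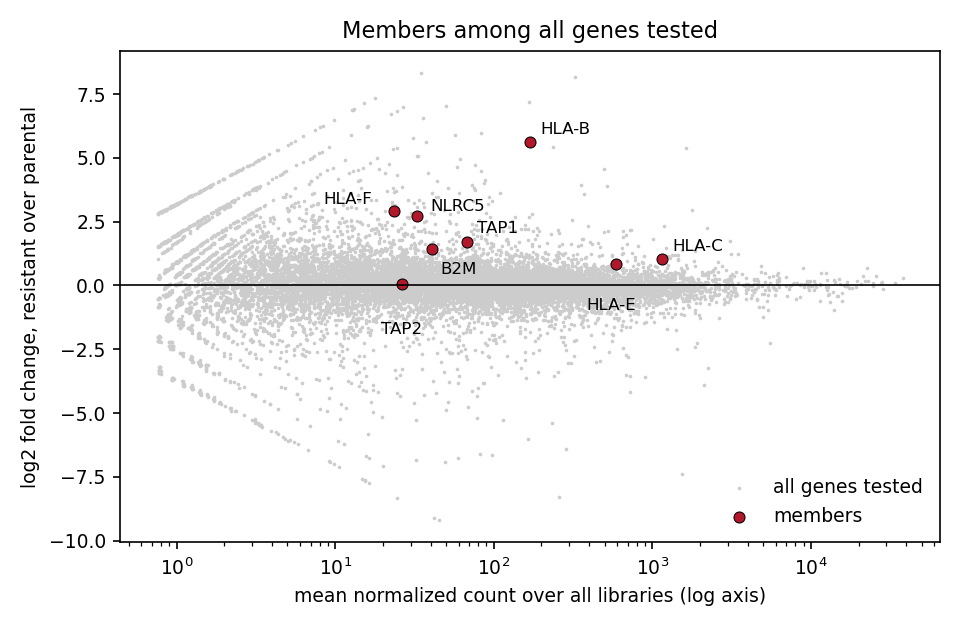
Log2 fold change (resistant over parental, y axis) against the mean normalized count over all libraries (x axis, log scale) for all 13494 genes tested (grey) and the 8 tested members (red). HLA-B lies at the upper edge of genes of its count, HLA-C and HLA-E lie above the narrow band of well-counted genes, and TAP2 lies at 0.04.

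Class I genes resemble each other, so it was asked how far a read of one could come from another. In the last 500 bases of 1 transcript per gene (GENCODE 29), 15.1% of the 30-base stretches of HLA-B occurred exactly in HLA-C transcripts, 2.88% of the 50-base stretches and 0% of the 75-base stretches. For HLA-E, HLA-F and HLA-G, 0% of the 50-base stretches occurred in any of the other 5 class I genes compared. For the pseudogene HLA-H this share was 18.2%, so its counts are uncertain. HLA-H itself was called higher, by 1.41 ± 0.19 per the authors' deposited table (adjusted p = 2.72e-12). In GENCODE 29 the span of HLA-B also overlaps HLA-C by 2640 bases on the same strand. TAP1 lies within the span of PSMB9 on the opposite strand, and HLA-F overlaps the antisense gene HLA-F-AS1 (1.11 ± 0.80, adjusted p = 0.34 per the authors' deposited table). Read length, strand use and the annotation of the authors are not given in the sources at hand, and a share of reads may have been split or discarded between such genes.

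The other genes of the pathway were taken from 9 lists, and 67 of their 93 genes per the authors' deposited table were tested, with 15 called higher and 5 lower. Over all genes tested, 13.3% were called higher and 14.8% lower, or 28.2% in either direction. Each list count that follows is to be read beside these shares. Among the 7 assembly genes, 2 were higher, 0 lower (0 also at an unadjusted p under 0.05 of the Wald test) and 5 not called per the authors' deposited table, with a median fold change of 0.05. TAPBP, or tapasin, which bridges the transporter and empty class I molecules, had a fitted mean count of 676 in resistant cells, against 295 in parental cells, a fold change of 1.20 ± 0.10 (adjusted p = 2.12e-30) per the authors' deposited table. The tapasin-related editor TAPBPL rose by 1.37 ± 0.45 (adjusted p = 0.00985) with a mean count of 18.2 per the authors' deposited table, and is named as the other of the 2. The general chaperones CALR (0.05 ± 0.06) and CANX (0.02 ± 0.07) were not called per the authors' deposited table, with intervals inside 0.17 of 0 on the log2 scale.

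Of 10 tested genes of peptide supply and trimming, 3 were higher, 1 lower and 6 not called per the authors' deposited table, and the median was 0.28. The shares were 30.0% higher and 10.0% lower, beside 13.3% and 14.8% of all genes tested. PSMB8, an immunoproteasome subunit whose gene lies between TAP1 and TAP2, had a fitted mean count of 301 in resistant cells, against 75.7 in parental cells, or 1.99 ± 0.16 per the authors' deposited table (adjusted p = 3.77e-34). PSME1, a subunit of the proteasome activator PA28, rose by 0.43 ± 0.08 per the authors' deposited table. Outside the naming rule, the immunoproteasome subunit gene PSMB9 was also called higher, at 4.48 ± 0.93 (adjusted p = 1.35e-05) per the authors' deposited table. PSMB9 had a mean count of 13.0, with a fitted parental count of 1.11. PSMB10, the third immunoproteasome subunit, fell by 0.27 ± 0.10 per the authors' deposited table (adjusted p = 0.0318). Its call was lost after centring on the median fold. The aminopeptidase genes ERAP1 (0.87 ± 0.47) and ERAP2 (0.79 ± 0.39), which trim peptides in the endoplasmic reticulum, were not called per the authors' deposited table.

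Among the 12 factors of class I promoters with a tested gene, 1 was higher, 2 were lower and 9 were not called per the authors' deposited table, and the median was 0.17. That share of calls was close to the 28.2% of all genes tested. RFXANK, a subunit of the complex at the X box, rose by 0.41 ± 0.13 per the authors' deposited table, against 0.24 ± 0.21 for RFX5, which was not called. NFYC, a subunit of the Y box factor, fell by 0.42 ± 0.12, and the NF-kB subunit gene RELA by 0.31 ± 0.11, per the authors' deposited table.

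The interferon lists, which share some genes, moved both ways. Of 11 tested genes of the interferon-gamma pathway, 3 were higher, 1 lower and 7 not called per the authors' deposited table, and the median was 0.03. The shares were 27.3% higher and 9.09% lower, beside 13.3% and 14.8% of all genes tested. The kinase gene JAK1 rose by 0.57 ± 0.17 and the receptor gene IFNGR2 fell by 0.45 ± 0.14 per the authors' deposited table. Outside the naming rule, the guanylate-binding protein gene GBP1 and the checkpoint ligand gene CD274 (1.65 ± 0.60) were also called higher per the authors' deposited table, GBP1 with a fitted parental count under 1. The chemokine genes CXCL9 and CXCL10 and IDO1 were listed at 0. Of 9 tested type I interferon response genes, 1 was higher, 1 lower and 7 not called per the authors' deposited table, and the median was 1.10, or 0.78 with low groups set to a count of 1. The share was 11.1% in each direction. ISG15, the best counted of them, was at 0.06 ± 0.14 (adjusted p = 0.837) per the authors' deposited table, where IFIT3 (1.45 ± 0.53) was the gene called higher and OAS1 (-1.96 ± 0.55) the gene called lower.

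**Figure D4:**
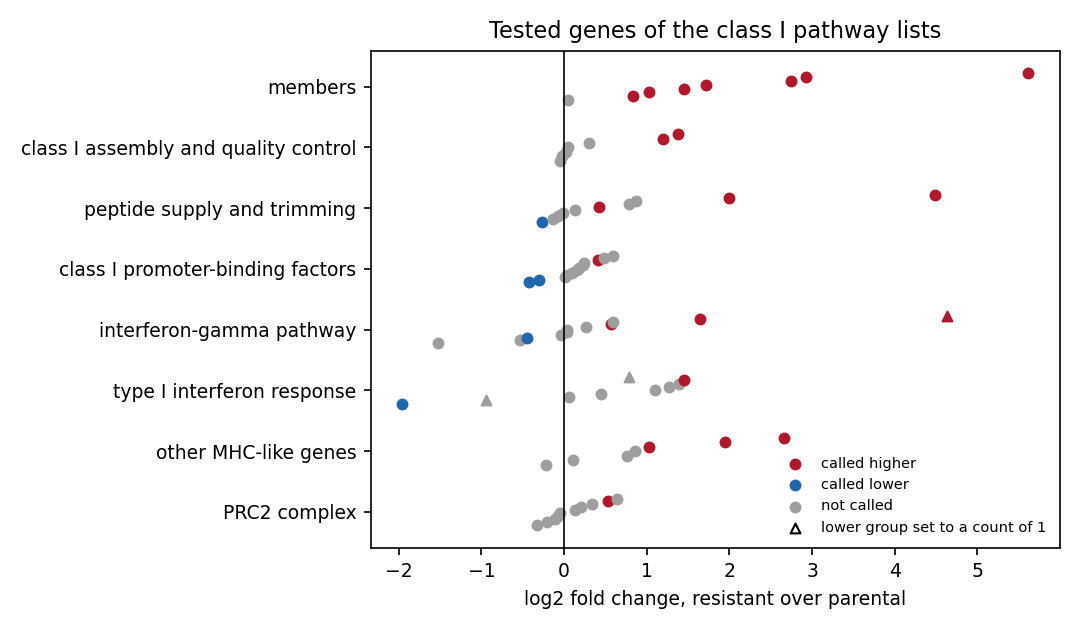
Log2 fold change (resistant over parental, x axis) of each tested gene of the members and of 7 lists (rows), in red where called higher, blue where called lower and grey where not called; triangles are genes whose lower group was set to a count of 1. Of the 8 members 7 are red, while the promoter-binding factors lie within 1 log2 unit of 0.

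Class II genes, which share the X and Y box module but depend on CIITA, were hardly detected. Of the 12 listed, 9 were at a mean count of 0 per the authors' deposited table, CIITA among them, and 2 were tested, HLA-DMA (0.37 ± 0.73) and HLA-DOB (0.31 ± 1.10), with 0 called and 0 at an unadjusted p under 0.05 of the Wald test. Of 7 tested genes of other MHC-like proteins, 3 were higher and 0 lower per the authors' deposited table (0 also at an unadjusted p under 0.05 of the Wald test), with a median of 0.86. The share higher was 42.9%, beside 13.3% of all genes tested. PROCR, the endothelial protein C receptor, rose by 2.67 ± 0.18, and MICB, a stress ligand of the receptor NKG2D, by 1.03 ± 0.22, per the authors' deposited table. MICA, the neighbour of HLA-B with the same receptor, was the third, at 1.95 ± 0.56 and a mean count of 12.8 per the authors' deposited table. Of the 10 PRC2 genes, which encode a repressive histone methyltransferase complex, 1 was higher (RBBP4, 0.53 ± 0.20), 0 lower (1 at an unadjusted p under 0.05 of the Wald test) and 9 not called per the authors' deposited table. EZH2, its catalytic subunit, was at 0.20 ± 0.12 (adjusted p = 0.251) per the authors' deposited table.

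The members were also set beside their chromosomal neighbours. Of 162 other tested genes with a start within 1 Mb of a member, 31 (19.1%) were higher and 22 (13.6%) lower, beside 13.3% and 14.8% of all genes tested per the authors' deposited table, with a median fold change of 0.03. On chromosome 6, which carries 7 of the members, the neighbours were 23 higher and 15 lower of 116, with a median of 0.01. Around NLRC5 7 of 25 were higher and 5 lower, and around B2M 1 of 21 was higher and 2 lower, per the authors' deposited table. Within 0.25 Mb, where pathway genes such as PSMB8, MICB and HLA-H are among the neighbours, 17 of 52 (32.7%) were higher and 3 (5.77%) lower, with a median of 0.34. The largest rises of well-counted neighbours per the authors' deposited table were those of C15orf48 (3.73 ± 0.33), the complement factor gene CFB (2.85 ± 0.38) and the metallothionein gene MT1F (2.42 ± 0.42). The largest falls were those of the ubiquitin ligase gene TRIM31 (-4.56 ± 0.43), GATM, an enzyme of creatine synthesis (-2.68 ± 0.38), and HYPK (-0.98 ± 0.29) per the authors' deposited table.

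**Figure D5:**
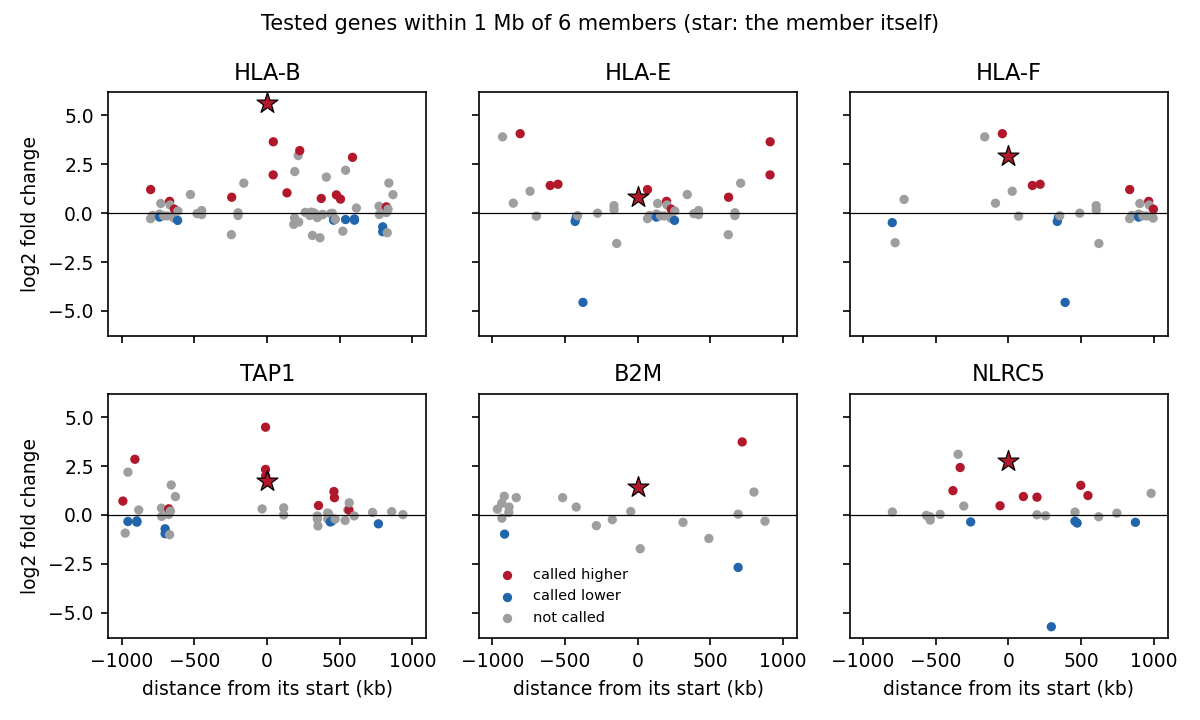
Log2 fold change (resistant over parental, y axis) of tested genes within 1 Mb of 6 members against the distance of their start from that of the member in kb (x axis); the star is the member itself, red genes were called higher, blue ones lower and grey ones were not called. Around HLA-B, 13 of 70 neighbours were called higher and 8 lower, with a median fold change of -0.02.

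Markers of the cell line and of other cell types were read in the same table. EPCAM, KRT8, KRT18, KRT19 and CDH1, which mark epithelial cells, had mean counts of 6334, 2855, 15841, 9805 and 293 per the authors' deposited table, whereas NKX2-1, a factor of lung epithelium, was listed at 0. The 9 epithelial markers summed to a fitted count of 31248 in resistant cells and 39079 in parental cells, with 2 of 7 tested called higher, 2 lower and 3 not called per the authors' deposited table. The mucin gene MUC1 (1.27 ± 0.34) and EPCAM (0.31 ± 0.05) were higher, and the keratin genes KRT8 (-0.65 ± 0.07) and KRT18 (-0.61 ± 0.07) were lower, per the authors' deposited table. The 12 leukocyte markers summed to a fitted count of 8.14 in resistant cells and 3.31 in parental cells. Of these, 7 were listed at 0, PTPRC and CD3E included, and 0 of the 3 tested were called per the authors' deposited table (1 at an unadjusted p under 0.05 of the Wald test). Fibroblast markers rose beside the members: the 9 listed summed to 678 in resistant cells and 4.005 in parental cells, nearly all of it from PDGFRB. PDGFRB and COL1A1 were called higher, while COL1A2, DCN, LUM, PDGFRA and THY1 were listed at 0 per the authors' deposited table. EGFR, the target of the drug, was lower, at -1.28 ± 0.16 per the authors' deposited table, and the part of these changes in the class I result was not tested.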

How the data were processed

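RNA of 6 libraries (3 resistant, 3 parental) was prepared, per the labels' protocols, with a bulk form of MARS-seq that reads the 3′ ends of polyadenylated transcripts. Reads were handled with DESeq2, HTSeq, STAR and cutadapt on GRCh38 (hg38), per the submitters' processing notes; versions, settings and the handling of molecular barcodes are not given in the sources used here. The authors' deposited table holds, per the file headers, 1 row per gene with a mean normalized count, which is a signal averaged over all libraries, a log2 fold change and its SE, a Wald statistic (a score equal to the fold over its SE), a p-value and an adjusted p-value. It lists 26485 genes, 15867 with reads and 13494 with an adjusted p. Mean counts summed to 3.97e+06 per library. The median SE was 0.15 at a mean count of 50 or more and 0.62 below it. Counts per library were not analysed here, so the planned count test gave way to the authors' Wald test.

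From this table, group means were derived from mean count and fold, intervals are 95% normal intervals of the fold, and adjusted p-values were recomputed with Benjamini-Hochberg under each alternative (Python 3.11.15, scipy 1.17.1), after a test on simulated data. A group mean under 1 (3 reads over 3 libraries) gets no fold. Positions come from GENCODE 29 for 93.7% of tested genes, and promoters from RefSeq (GRCh38.p14). The members and lists were chosen with earlier results of these data known. Named genes are all members and, of each list and of the neighbours, up to 3 rises and 3 falls among called genes with a mean count of at least 20; others were chosen after their values were seen. Intervals for counting error were not computed. Some list and neighbour genes are counted but not reported by name here.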

Additional observations from a re-analysis of the deposited data

How the results depend on the processing

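Apart from centring, the alternatives leave the folds as they are and change only p or which genes are tested, so they bear on the calls and not on direction. Adjusting over every gene with a p, centring the folds on the median of well-counted genes (-0.03) and an adjusted p under 0.01 each left 7 members higher. Adjusting over genes with a mean count of 50 or more, which removes the less counted members from the test, left 4. A test against a fold of 1.5 left 5, without HLA-E (adjusted p = 0.0929) and B2M (adjusted p = 0.135). Of the list genes, 15 higher and 5 lower in the main test became 9 higher at a mean count of 50 or more, 6 higher and 0 lower against a fold of 1.5 (1 lower at an unadjusted p under 0.05 of that Wald test), and 3 lower at an adjusted p under 0.01. Of the neighbours, 31 higher and 22 lower became 18 higher at a mean count of 50 or more, 11 higher and 3 lower against a fold of 1.5, 14 lower at an adjusted p under 0.01, and 17 higher and 3 lower within 0.25 Mb. With 150 bases before the start, 0 of 7 members held the NF-kB letters and 0 the STAT letters. This outcome was fixed in advance, since those matches lie at -177 to -168 and at -189 to -181, outside that window. After centring, no peptide supply gene was lower. No paired analysis was possible because the deposited comparison carries no values per library; for the same reason, leaving out a replicate, other size factors and a count test were not run. Depth limits HLA-F, NLRC5, TAP2 and B2M, whose SEs were 0.34 to 0.49.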

Other observations

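Close to HLA-B and HLA-C on chromosome 6 lie several further genes that were called higher, named here after their values were seen. HCP5, a noncoding gene whose start lies 43514 bases from that of HLA-B, had a fold change of 3.64 ± 0.76 (adjusted p = 1.71e-05) per the authors' deposited table. The lymphotoxin beta gene LTB, a member of the TNF family, stood at 3.19 ± 0.89 (adjusted p = 0.002) per the authors' deposited table, on a mean count of 7.68. Next to TAP1 lies PSMB9, the gene already counted above among those of peptide supply. Its fitted mean count was 24.8 in resistant cells, against 1.11 in parental cells. The antisense gene PSMB8-AS1, also close to TAP1, was at 2.33 ± 0.61 per the authors' deposited table. Near NLRC5 on chromosome 16, CPNE2, a calcium-dependent membrane-binding protein gene, rose by 0.94 ± 0.15 per the authors' deposited table (adjusted p = 1.47e-08).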
